A study of Xenopus laevis with 27 samples.

Results

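The genes described here are the chemokine ligands cxcl8, cxcl12 and cxcl14 and the receptors cxcr1, cxcr4 and ackr3 of the frog Xenopus laevis, followed in amputated tails over 9 times. They were chosen by symbol, as every gene whose name without its final .L or .S was one of these or cxcr2, and the choice gave 11 of the 29776 genes counted. All 11 passed the filter on low counts, which kept 22268 genes. They are cxcl8.L and cxcl8.S, cxcr1.L and cxcr1.S, cxcl12.L and cxcl12.S, cxcr4.L and cxcr4.S, ackr3.L and ackr3.S, and cxcl14.L. The frog's genome was doubled long ago, and L and S name the gene copy of its long and its short subgenome. No counted gene had the name cxcr2, and RefSeq's gene table of assembly v10.1 gives cxcr2 as another name of cxcr1.S.

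Chemokines are small secreted proteins that set the direction in which cells move, and they act through receptors that span the membrane 7 times and signal through Gi proteins. In mammals CXCL8 is released by injured epithelium, macrophages and other cells and draws neutrophils through CXCR1 and CXCR2. CXCL12 acts through CXCR4 on leukocytes, blood stem cells, endothelial cells and migrating embryonic cells, while ACKR3 binds CXCL12 without signalling through G proteins and takes it up for degradation, which shapes the gradient that CXCR4 reads. CXCL14 is a chemokine made mainly by epithelia, and its receptor is less settled.

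RNA of tails was sequenced in bulk at 0, 30, 60 and 90 minutes (minutes post amputation, mpa), at 3 and 6 hours (hpa) and at 1, 3 and 7 days (dpa). Each time had 3 libraries, called A, B and C. All tails were amputated, those at 0 mpa included, so each later time is set against tails taken at the cut and there is no uncut group. Each library held RNA pooled from 20 embryos at what the labels call the regenerative stage. The labels do not give strain or age in days, nor whether the 3 libraries of a time came from separate clutches, so the spread behind the p-values may be technical in part.

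Of the 27 libraries 24 had a total of 4186706 to 6332675 counts. Library 6 hpa C had 1207557, library 90 mpa C 367958 and library 7 dpa C 19187. The last 2 held 9 and 5 reads of the 11 genes, so a gene with no read there may still have had up to 9.06 CPM (counts scaled to a total of 1000000) in 90 mpa C and 52 CPM in 7 dpa C. Libraries 1 dpa B and 3 dpa B were as deep in total counts as the rest. In them 7 and 8 of the 11 genes had a read, against 10 or 11 in the A and C libraries of those times. Fewer genes of any kind had a read there. Library 1 dpa B had 17532, against 24865 and 25790 in 1 dpa A and C. Library 3 dpa B had 19983, against 23111 and 22462 in 3 dpa A and C. Whether 0 reads of a gene in these libraries mean absence was not tested. Markers of the labelled tissue were present at 0 mpa, with summed levels of 145999 to 244176 CPM for skeletal muscle, 9007 to 11171 CPM for notochord and cartilage, 2763 to 3231 CPM for epidermis and 258 to 439 CPM for neural genes.

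Over the 9 times 7 of the 11 genes changed by edgeR's joint quasi-likelihood test, in which 15.8% of all genes tested passed an adjusted p of 0.05. They were cxcl8.S (adjusted p = 1.06e-06), cxcl14.L (5.68e-06), cxcl12.S (0.0025), ackr3.L (0.00581), cxcr4.S (0.0145), cxcr4.L (0.018) and ackr3.S (0.0228). The other 4 did not pass: cxcl8.L had an adjusted p of 0.0559, cxcl12.L 0.298, cxcr1.L 0.675 and cxcr1.S 0.859. Counted gene by gene and time by time against 0 mpa, 20 of 88 comparisons passed, 14 higher and 6 lower. Without 0 mpa A 11 passed and without 0 mpa B 12, and without the 3 libraries under 1500000 counts 22 did. Of the 11 genes 0 passed at 30 mpa, where 0.377% of all genes tested did, 2 passed at 60 mpa (1.15% of all genes) and 2 at 90 mpa (3.38%). At 3 hpa 2 genes passed (3.43% of all genes) and at 6 hpa 3 (3.66%). On the later days 5 passed at 1 dpa (4.56% of all genes), 3 at 3 dpa (9.22%) and 3 at 7 dpa (7.94%). The higher ones were cxcl8.S at 6 times, cxcr4.S at 7 times and cxcr4.L at 7 dpa, and the lower ones belonged to ackr3.L, ackr3.S, cxcl12.S and cxcl14.L.

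**Figure D1:**
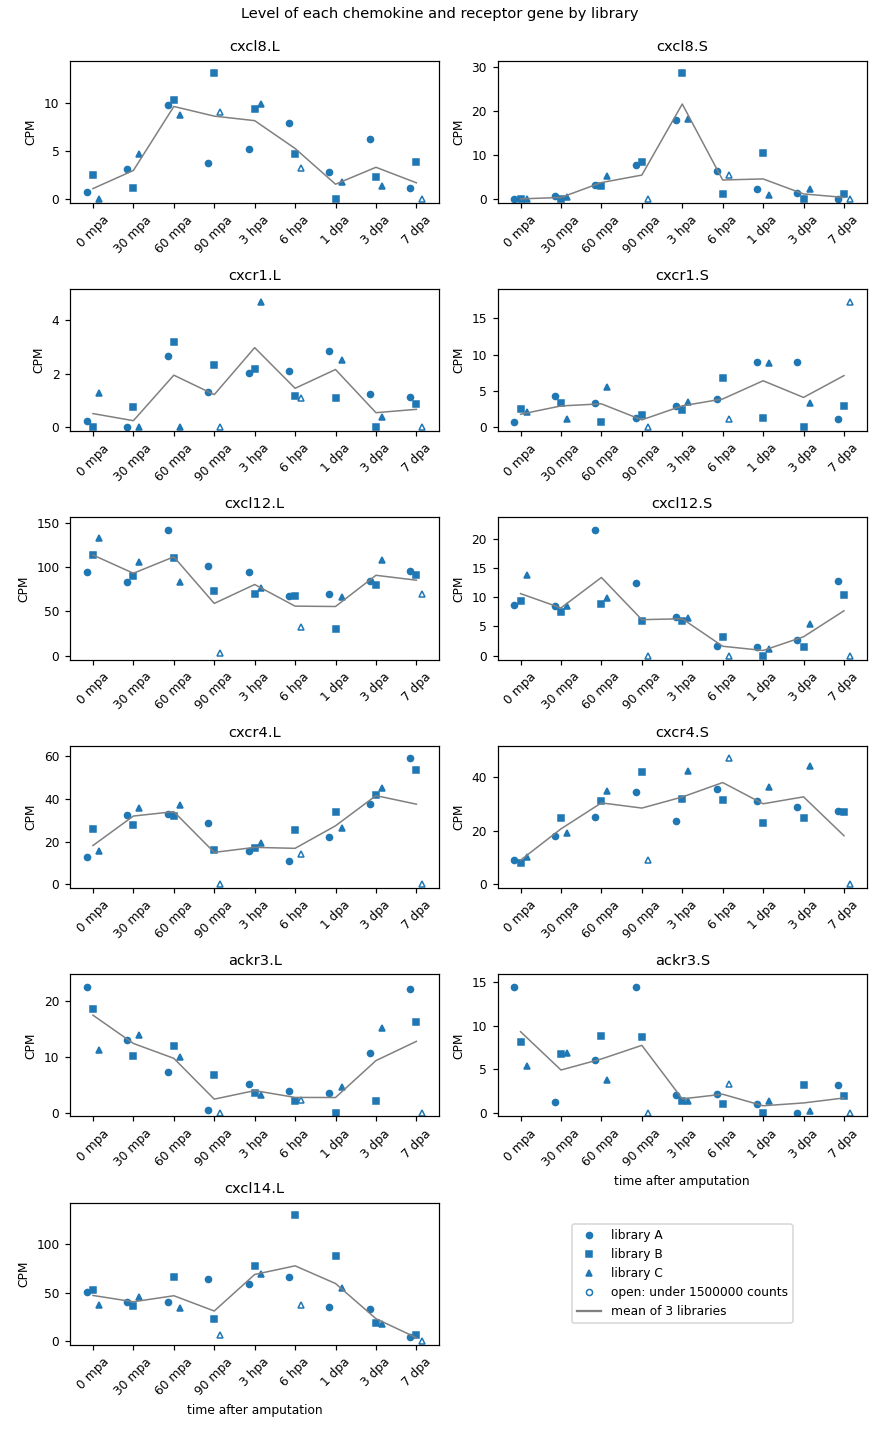
Level of each of the 11 genes (CPM, y axis, scale set per panel) in every library at the 9 times (x axis); circles, squares and triangles are libraries A, B and C, open symbols are libraries under 1500000 counts, and the line joins the means of 3 libraries. The cxcl8.S libraries at 3 hpa sit between 18.1 and 28.7 CPM, above all libraries of the other times, and the cxcr4.S libraries at 0 mpa sit between 7.82 and 10.1 CPM.

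The ligand cxcl8.S rose within the first hours and was highest at 3 hpa, while no read of it was seen in the tails at the cut. In libraries A, B and C it had 0.592, 0 and 0.389 CPM at 30 mpa, 3.13, 2.92 and 5.12 CPM at 60 mpa, 7.78, 8.53 and 0 CPM at 90 mpa and 18.1, 28.7 and 18.2 CPM at 3 hpa, against 0 CPM in all 3 libraries at 0 mpa. The rise was thus seen in every library at 60 mpa and 3 hpa, and at 90 mpa in A and B, the third library being the shallow one. At later times it had 6.33, 1.17 and 5.46 CPM at 6 hpa, 2.33, 10.4 and 0.892 CPM at 1 dpa, 1.25, 0 and 2.16 CPM at 3 dpa and 0, 1.02 and 0 CPM at 7 dpa. Every library from 3 hpa to 1 dpa lay above 0 mpa, but those of 3 and 7 dpa overlapped it, and at 1 dpa library B held 47 of the 67 reads.

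Because cxcl8.S had no read at 0 mpa, its folds are lower bounds set against 3 counts over the 3 baseline libraries. Each bound pools the reads of the 3 libraries of a time and does not cover the spread between them. In pooled reads cxcl8.S was at least 16.3-fold higher at 60 mpa (adjusted p = 0.0077), 33.6-fold at 90 mpa (0.000969) and 91.7-fold at 3 hpa (1.54e-05). The bound was then 18.0-fold at 6 hpa (0.00307), 16.5-fold at 1 dpa (0.00225) and 4.86-fold at 3 dpa (0.0374). At 30 mpa and 7 dpa the bounds were 1.36-fold and 2.13-fold, and neither passed (adjusted p of 1 and 0.194). In a bulk sample a higher level may come from more cells that carry the RNA or from more RNA per cell, and these cannot be told apart here. The calls at 90 mpa, 3 hpa, 6 hpa and 1 dpa passed under every alternative that gave a value. Fits of the 2 compared times alone gave none for cxcl8.S at 90 mpa, 6 hpa and 1 dpa, and DESeq2 gave no adjusted p at 6 hpa. The call at 60 mpa had an adjusted p of 0.0623 without 0 mpa A, 0.0623 without 0 mpa B and 0.0611 without 0 mpa C. That at 3 dpa had 0.115, 0.114 and 0.11 without the same libraries, 0.0688 without 3 dpa A and 0.136 without 3 dpa C.

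The other copy, cxcl8.L, was present at the cut and was highest at 60 mpa to 3 hpa. It had 9.88, 10.4 and 8.81 CPM at 60 mpa, 3.78, 13.2 and 9.06 CPM at 90 mpa (the last from 3 reads), 5.2, 9.42 and 9.97 CPM at 3 hpa and 7.91, 4.66 and 3.27 CPM at 6 hpa, against 0.721, 2.52 and 0 CPM at 0 mpa. All libraries of these 4 times lay above all 3 of the baseline. The log2 fold change was 3.16 ± 0.96 (SE) at 60 mpa (adjusted p = 0.12), 2.99 ± 0.98 at 90 mpa (0.0791), 2.92 ± 0.96 at 3 hpa (0.0821) and 2.35 ± 0.96 at 6 hpa (0.213), so none passed. At the remaining times its level was 1.11 to 4.67 CPM at 30 mpa, 0 to 2.83 CPM at 1 dpa, 1.37 to 6.23 CPM at 3 dpa and 0 to 3.92 CPM at 7 dpa, ranges that overlap that of 0 mpa. Its joint value lay near the threshold and passed in several alternatives (0.0288 by DESeq2, 0.0297 without a filter on low counts, and 0.0243 to 0.0463 without 0 mpa B, 90 mpa A, 1 dpa A, 1 dpa B, 3 dpa A or 3 dpa B). Without 1 dpa B the copy also passed at 60 mpa (0.0358), 90 mpa (0.0309) and 3 hpa (0.0285).

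Both copies of cxcr1, the receptor that CXCL8 acts on in mammals, had few reads. Over all 27 libraries cxcr1.L had 176 reads and cxcr1.S 446. The highest time of cxcr1.L was 3 hpa, with 2.04, 2.19 and 4.69 CPM against 0.24, 0 and 1.3 CPM at 0 mpa. These groups did not overlap, but the log2 fold change of 2.45 ± 1.46 did not pass (adjusted p = 0.589). For cxcr1.S the levels at 1 dpa were 9, 1.33 and 8.92 CPM against 0.721, 2.52 and 2.16 CPM at 0 mpa, with library B inside the baseline range (log2 fold change 1.82 ± 1.03, adjusted p = 0.371). A single read put cxcr1.S at 17.3 CPM in 7 dpa C. Neither copy passed at any time in any alternative that gave a value for it.

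**Figure D2:**
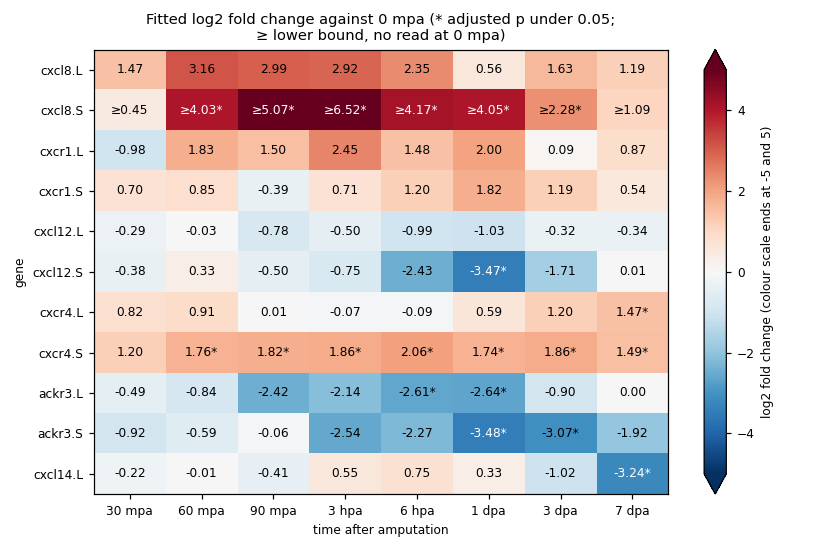
Fitted log2 fold change of each gene (rows) at each later time against 0 mpa (columns), coloured from lower to higher with the colour scale ending at -5 and 5; an asterisk marks an adjusted p under 0.05, and for cxcl8.S, which had no read at 0 mpa, the cells give the log2 of the lower bound. Of 88 cells 20 carry an asterisk, 14 higher and 6 lower, and cxcr4.S carries one at every time from 60 mpa on.

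The receptor cxcr4.S, which reads CXCL12, was higher than at the cut at every time from 60 mpa to 7 dpa. It had 18, 24.7 and 19.3 CPM at 30 mpa, 25.1, 31.1 and 34.8 CPM at 60 mpa, 34.2, 41.9 and 9.06 CPM at 90 mpa and 23.7, 31.8 and 42 CPM at 3 hpa, against 8.89, 7.82 and 10.1 CPM at 0 mpa. Of these 12 later libraries 11 lay above the baseline, and the exception was 90 mpa C with 3 reads. It then had 35.3, 31.5 and 46.9 CPM at 6 hpa, 31.2, 22.7 and 36.1 CPM at 1 dpa, 28.8, 24.8 and 44.2 CPM at 3 dpa and 27.3, 27 and 0 CPM at 7 dpa. All libraries of these times lay above 0 mpa except 7 dpa C, where no read was seen.

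The log2 fold change of cxcr4.S was 1.76 ± 0.42 at 60 mpa (adjusted p = 0.0125), 1.82 ± 0.43 at 90 mpa (0.00655), 1.86 ± 0.42 at 3 hpa (0.00273) and 2.06 ± 0.43 at 6 hpa (0.00102). On the later days it was 1.74 ± 0.42 at 1 dpa (0.00599), 1.86 ± 0.42 at 3 dpa (0.00162) and 1.49 ± 0.44 at 7 dpa (0.0224). At 30 mpa it was 1.20 ± 0.42 and did not pass (0.576), although the groups did not overlap. The calls at 3 hpa, 6 hpa and 3 dpa passed under every alternative run. Since all of these comparisons share the 0 mpa libraries, they are not independent, and the joint adjusted p was 0.0921 without 0 mpa A, 0.117 without B and 0.0694 without C. Without 0 mpa B the call was lost at 60 mpa (0.132), 90 mpa (0.0568), 1 dpa (0.057) and 7 dpa (0.0996). Without 0 mpa A it was lost at 60 mpa (0.0891) and 7 dpa (0.0756), and without 0 mpa C at 60 mpa (0.0524) and 7 dpa (0.0514). Leaving out 60 mpa C gave 0.0911 at that time, 90 mpa B 0.0635, 1 dpa C 0.0508, 7 dpa A 0.139 and 7 dpa B 0.132 at theirs.

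The L copy of the same receptor had another course, with an early and a late high level. In libraries A, B and C cxcr4.L had 32.6, 27.6 and 35.8 CPM at 30 mpa and 32.8, 32.1 and 37.3 CPM at 60 mpa, against 13, 26 and 15.5 CPM at 0 mpa. At 90 mpa it had 28.7, 16.1 and 0 CPM, at 3 hpa 15.6, 16.9 and 19.4 CPM, at 6 hpa 10.9, 25.4 and 14.2 CPM and at 1 dpa 22, 33.8 and 26.5 CPM, all 4 groups overlapping the baseline. At 3 dpa it had 37.5, 41.9 and 45.3 CPM and at 7 dpa 59.1, 53.7 and 0 CPM, above the baseline except in 7 dpa C. Its log2 fold change of 1.47 ± 0.46 at 7 dpa passed (adjusted p = 0.0333), and those at 30 mpa (0.82 ± 0.44, adjusted p = 1), 60 mpa (0.91 ± 0.44, 0.684) and 3 dpa (1.20 ± 0.44, 0.0776) did not. The call at 7 dpa was lost without 0 mpa A (0.173), 0 mpa C (0.134), 7 dpa A (0.231) or 7 dpa B (0.155), and the joint call without 7 dpa A (0.0778) or 7 dpa B (0.0607). Without the 3 libraries under 1500000 counts the change at 3 dpa passed as well (1.18, adjusted p = 0.0081), as it did without 90 mpa C alone (1.15, 0.0337).

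The ligand of this receptor was read mostly from its L copy, which did not pass at any time. The levels of cxcl12.L in libraries A, B and C were 67.4, 67.6 and 32.7 CPM at 6 hpa and 69.3, 30.4 and 66.8 CPM at 1 dpa, against 94.7, 113 and 133 CPM at 0 mpa. Neither group overlapped the baseline, and the log2 fold changes were -0.99 ± 0.40 (adjusted p = 0.206) and -1.03 ± 0.40 (0.135). The 3 hpa group did not overlap it either, with a smaller change (-0.50 ± 0.39, 0.767). At the other times the level was 83.5 to 105 CPM at 30 mpa, 82.8 to 142 CPM at 60 mpa, 3.02 to 101 CPM at 90 mpa (the lowest value is 1 read in library C), 69.7 to 94.5 CPM at 3 hpa, 79.4 to 108 CPM at 3 dpa and 69.3 to 95.6 CPM at 7 dpa. Without the 3 libraries under 1500000 counts cxcl12.L was lower at 1 dpa (log2 fold change -1.04, adjusted p = 0.00573) and passed the joint test (0.0466), and without 90 mpa C alone it was lower at 1 dpa by -1.06 on the log2 scale (0.0326).

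The S copy of the ligand was already low at 6 hpa and lowest at 1 dpa, and it passed against 0 mpa at 1 dpa alone. In libraries A, B and C cxcl12.S had 6.56, 5.92 and 6.45 CPM at 3 hpa, 1.58, 3.26 and 0 CPM at 6 hpa, 1.5, 0 and 1.19 CPM at 1 dpa and 2.65, 1.56 and 5.49 CPM at 3 dpa, against 8.65, 9.33 and 13.8 CPM at 0 mpa. All libraries of these 4 times lay below the baseline. The log2 fold change was -0.75 ± 0.71 at 3 hpa (adjusted p = 0.822), -2.43 ± 0.79 at 6 hpa (0.0712), -3.47 ± 0.80 at 1 dpa (0.0038) and -1.71 ± 0.73 at 3 dpa (0.143), of which that at 1 dpa passed. At 30, 60 and 90 mpa its level was 7.42 to 8.56, 8.76 to 21.5 and 0 to 12.5 CPM. The 30 mpa libraries also lay below the baseline, with a log2 fold change of -0.38 ± 0.70 that did not pass. At 7 dpa the level was 12.7, 10.3 and 0 CPM with a log2 fold change of 0.01 ± 0.72. Among the alternatives the change at 1 dpa missed the threshold in the fit of those 6 libraries alone (adjusted p = 0.0661), and the change at 6 hpa passed by DESeq2 (-2.58, 0.0125), without 90 mpa C (0.0398) and without 1 dpa B (0.0293).

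Ackr3, which takes up CXCL12 in mammals and fish, had low levels in both copies from 3 hpa to 1 dpa. In libraries A, B and C ackr3.L had 5.2, 3.51 and 3.13 CPM at 3 hpa, 3.87, 2.1 and 2.18 CPM at 6 hpa and 3.5, 0 and 4.61 CPM at 1 dpa, against 22.6, 18.7 and 11.2 CPM at 0 mpa. At 90 mpa it had 0.445, 6.78 and 0 CPM. Every library of these 4 times was below the lowest baseline library. Before that it had 13, 10.2 and 14 CPM at 30 mpa and 7.23, 11.9 and 10 CPM at 60 mpa, and afterwards 10.7, 2.15 and 15.1 CPM at 3 dpa and 22.1, 16.2 and 0 CPM at 7 dpa, all overlapping the baseline. The log2 fold change was -2.42 ± 0.79 at 90 mpa (adjusted p = 0.079), -2.14 ± 0.74 at 3 hpa (0.11), -2.61 ± 0.78 at 6 hpa (0.044) and -2.64 ± 0.75 at 1 dpa (0.0242), so that the last 2 passed.

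Both ackr3.L calls lay near the threshold. That at 6 hpa had an adjusted p of 0.17 without 0 mpa A, 0.12 without 0 mpa B, 0.0851, 0.199 and 0.148 without 6 hpa A, B and C, and 0.0501 to 0.0549 without any of 11 libraries of other times (all 3 of 30 mpa, of 60 mpa and of 3 hpa, and 7 dpa A and B). The call at 1 dpa was lost without 0 mpa A (0.106), 0 mpa B (0.078), 1 dpa A (0.0563) or 1 dpa B (0.11). The change at 90 mpa passed by DESeq2 (-2.63, 0.043), without a filter on low counts (0.0332) and without 90 mpa B (-5.35, 0.00536), 1 dpa B (0.0259) or 3 dpa B (0.0429), and the change at 3 hpa passed without 1 dpa B (0.0322).

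The S copy of ackr3 was low from 3 hpa on, the 2 deep libraries of 7 dpa included. It had 2.04, 1.31 and 1.37 CPM at 3 hpa, 2.11, 0.932 and 3.27 CPM at 6 hpa, 1, 0 and 1.34 CPM at 1 dpa, 0, 3.12 and 0.196 CPM at 3 dpa and 3.14, 1.89 and 0 CPM at 7 dpa, against 14.4, 8.07 and 5.4 CPM at 0 mpa. Every library of these 5 times but 7 dpa C lay below the baseline. In 7 dpa C no read was seen, and its floor of 52 CPM is above the baseline, so it cannot be placed. At 30, 60 and 90 mpa the ranges of 1.18 to 6.81, 3.69 to 8.76 and 0 to 14.5 CPM overlapped the baseline. The log2 fold change was -3.48 ± 1.04 at 1 dpa (adjusted p = 0.0367) and -3.07 ± 1.02 at 3 dpa (0.0447), while those at 3 hpa (-2.54 ± 0.99, 0.205), 6 hpa (-2.27 ± 1.03, 0.294) and 7 dpa (-1.92 ± 1.07, 0.363) did not pass. The call at 1 dpa was lost without 0 mpa A (0.163), 0 mpa B (0.0764), 1 dpa A (0.0875), 1 dpa B (0.133) or 1 dpa C (0.0614). The call at 3 dpa was lost without 0 mpa A (0.172), 0 mpa B (0.0783), 3 dpa A (0.162) or 3 dpa C (0.164), and had 0.0506 to 0.0544 without any of 7 libraries of other times (30 mpa B and C, 60 mpa A and B, 3 hpa A and B, and 7 dpa C). The joint call of ackr3.S was lost without 0 mpa A (0.0713).

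The epithelial chemokine cxcl14.L was near or above its starting level through 1 dpa and then fell. It had 59.5, 77.4 and 69.8 CPM at 3 hpa, 66.1, 130 and 37.1 CPM at 6 hpa, 35.7, 87.6 and 55.3 CPM at 1 dpa, 33.5, 18.5 and 17.3 CPM at 3 dpa and 3.85, 6.24 and 0 CPM at 7 dpa, against 50.7, 53.2 and 37.6 CPM at 0 mpa. The 3 hpa libraries all lay above the baseline, and the 3 dpa libraries and 7 dpa A and B lay below it. In 7 dpa C no read was seen, and its floor of 52 CPM is within the baseline range, so it cannot be placed. The 6 hpa and 1 dpa groups overlapped the baseline. The log2 fold change was 0.55 ± 0.42 at 3 hpa (adjusted p = 0.752), -1.02 ± 0.43 at 3 dpa (0.132) and -3.24 ± 0.54 at 7 dpa (1.31e-05), and the last passed under every alternative run. At 30, 60 and 90 mpa the level was 35.8 to 45.7, 34.2 to 66.1 and 6.04 to 63.8 CPM, overlapping the baseline. Without the 3 libraries under 1500000 counts the fall at 3 dpa also passed (-1.04, 0.0421).

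Between neighbouring times 1 of 77 comparisons of the 11 genes passed, the fall of cxcl14.L at 7 dpa against 3 dpa (log2 fold change -2.22 ± 0.53, adjusted p = 0.0165). This was 1 of 11 at that step, where 0.849% of all genes tested passed. At the other steps 0 of 11 passed by edgeR's test, with 0.189% of all genes at 60 against 30 mpa, 0.0629% at 90 against 60 mpa, 0.0314% at 3 hpa against 90 mpa, 0.225% at 6 against 3 hpa, 0.332% at 1 dpa against 6 hpa and 0.723% at 3 against 1 dpa. The call was lost without 3 dpa A (0.129), 7 dpa A (0.305) or 7 dpa B (0.0714). Without the 3 libraries under 1500000 counts cxcl14.L was also lower at 3 dpa than at 1 dpa (-1.34, 0.0331).

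The copies of 2 genes did not keep 1 ratio over the times. The test took the log2 ratio of L to S reads in each library with at least 10 reads of the pair and permuted the time labels (100000 permutations, two-sided), with Benjamini-Hochberg adjustment over 5 pairs. This permutation test passed for cxcl12 (p = 0.00011, adjusted p = 0.00055, 25 libraries) and cxcr4 (p = 0.00067, adjusted p = 0.00167, 25 libraries). The permutation test did not pass for ackr3 (p = 0.0636, adjusted p = 0.106, 23 libraries), cxcl8 (p = 0.225, adjusted p = 0.281, 20 libraries) or cxcr1 (p = 0.538, adjusted p = 0.538, 21 libraries). The copies are similar in sequence and the counting could split or lose reads between them, and lengths were not taken into account, so a share says how the copies moved with time and not which copy was more abundant.

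For cxcr4 the L copy gave 60.7% of the reads of the pair at 30 mpa, 52.9% at 60 mpa and 36.2% at 90 mpa, against 66.6% at 0 mpa. The share was 34.5% at 3 hpa and 32.7% at 6 hpa, and then 46.5% at 1 dpa, 56.1% at 3 dpa and 67.5% at 7 dpa. By library the share was 39.7, 34.7 and 31.5% at 3 hpa, against 59.3, 76.9 and 60.5% at 0 mpa, with no overlap. At 7 dpa both copies stood above 0 mpa in libraries A and B. Summed over both copies, cxcr4 was at 39.4, 48.6 and 61.4 CPM at 3 hpa and at 86.4, 80.6 and 0 CPM at 7 dpa, against 21.9, 33.8 and 25.7 CPM at 0 mpa. For cxcl12 the L share was 92.7% at 3 hpa and 96.8% at 6 hpa, and then 98.3% at 1 dpa, 96.6% at 3 dpa and 89% at 7 dpa, against 91.4% at 0 mpa. The 3 libraries at 1 dpa had 97.9, 100 and 98.2%, against 91.6, 92.4 and 90.6% at 0 mpa, and the S copy had 17 reads at 1 dpa against 137 at 0 mpa.

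For ackr3 the L share was 25.2% at 90 mpa and 90.2% at 3 dpa, against 65.3% at 0 mpa, with libraries far apart within a time. It was 2.99% in 90 mpa A and 43.8% in B, and 100, 40.7 and 98.7% in 3 dpa A, B and C. The p of this test was 9e-05 without 3 dpa B and 0.0399 without 90 mpa B. For cxcl8 the L share was 71.5% at 60 mpa, 52.7% at 90 mpa and 27.8% at 3 hpa, against 100% of 13 reads at 0 mpa, and at 1 dpa it was 0% in library B against 54.8 and 66.7% in A and C. At 0 mpa and at 7 dpa 1 library each had the 10 reads needed. The test could thus say little about a shift of the cxcl8 ratio from the baseline. The permutation p of cxcl8 was 0.0553 without 1 dpa B.

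**Figure D3:**
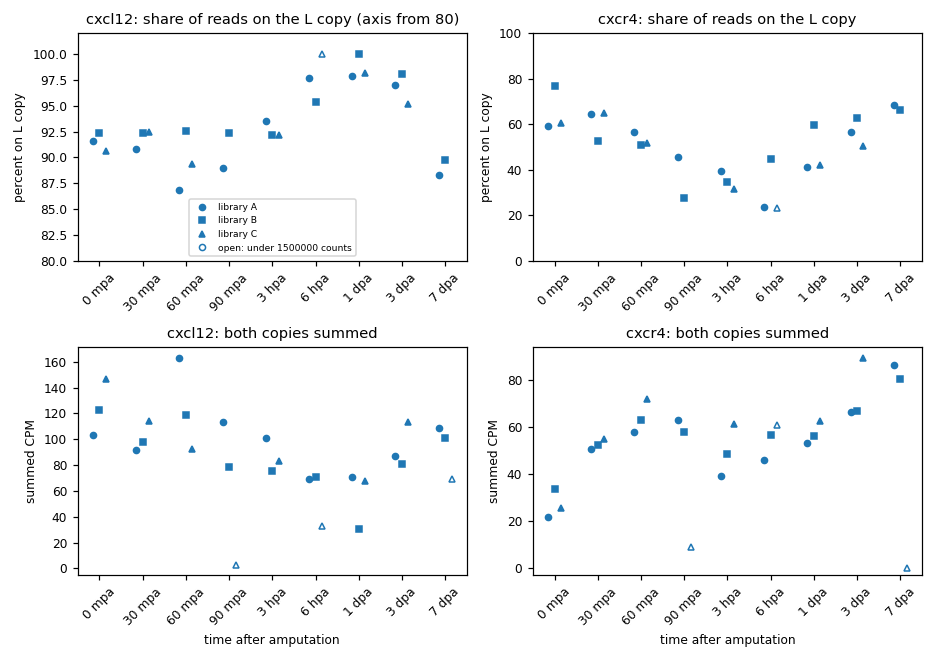
Top, share of the reads of each pair that came from the L copy (percent, y axis, cut at 80 for cxcl12) in libraries with at least 10 reads of the pair, and bottom, the summed level of both copies (CPM, y axis) in every library, at the 9 times (x axis), for cxcl12 (left) and cxcr4 (right); circles, squares and triangles are libraries A, B and C, and open symbols are libraries under 1500000 counts. The cxcr4 share lies between 31.5 and 39.7% at 3 hpa, below the 59.3 to 76.9% of 0 mpa, and the cxcl12 share at 1 dpa lies above that of 0 mpa.

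Genes whose course over the 9 times was most like that of each changed gene were found by Pearson's r of log2(fitted mean CPM + 1) among 14322 genes. These are descriptions of 9 time means taken from the same libraries, chosen as the highest of many. For cxcl8.S the closest was noxo1.1.L, which organises the NADPH oxidase (r = 0.97), followed by prr15.L, satpa.L, rab11fip1.L and errfi1.L, an inhibitor of EGF receptor signalling (0.958). For cxcr4.S it was gadd45g.S, a stress-induced growth arrest gene (0.968), with emx2.S, ado.L, snai1.S, a factor of epithelial-mesenchymal transition (0.945), and pkmyt1.S. For cxcr4.L it was dlgap5.S, a mitotic spindle gene (0.981), with gpatch4.L, top3b.L, sall3.S and the neural progenitor gene sox3.S (0.946).

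For cxcl14.L the closest was cystm1.L (r = 0.996), then tpd52l2.L, nxpe2.L, gmds.L and rtn3.L. For cxcl12.S it was pax3.L, a transcription factor of dorsal neural tube, neural crest and muscle precursors (0.955), then map1lc3b.L, ncapg.L, rrm1.L and rmc1.L. For ackr3.L it was pds5b.L, a cohesin regulator (0.976), with eif2a.L, dek.L, gpx8.S and gtf2i.S, and for ackr3.S phyhipl.S (0.945), with ppm1f.L, tlk1.S, arhgap22.L and bcap29.L. None of the 7 changed genes had its own partner copy among its 5 closest genes, and over the 9 means r was 0.108 between cxcr4.L and cxcr4.S, 0.373 between the ackr3 copies, 0.706 between the cxcl8 copies and 0.802 between the cxcl12 copies.

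Among other chemokines and chemokine receptors 12 genes of the list were in the table and 3 passed the filter on low counts. One of these, ccl4.L, a CC chemokine that in mammals draws monocytes and lymphocytes, changed over the 9 times (joint adjusted p = 0.00338). It had 1 read at 30 mpa, 53 reads at 60 mpa and 29 at 90 mpa, against 0 reads at 0 mpa. It then had 83 reads at 3 hpa, 31 reads at 6 hpa, 55 at 1 dpa, 32 reads at 3 dpa and 15 at 7 dpa. In pooled reads it was at least 25-fold higher at 3 hpa (adjusted p = 0.00252). The other 2, ackr4.L, a scavenger of CC chemokines (joint adjusted p = 0.052), and ccr9.L (0.682), did not pass.

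Of 37 genes of signal transduction below chemokine receptors, the G proteins, arrestins, kinases and regulators of migration, 7 changed over the 9 times, a share near the 15.8% of all genes tested. Against 0 mpa 2 were higher at 60 and at 90 mpa, where 1.15% and 3.38% of all genes tested passed in either direction. At 3 and at 6 hpa 1 was higher (3.43% and 3.66%). At 1, 3 and 7 dpa 2 were higher each (4.56%, 9.22% and 7.94%), and 1 was lower, ptk2b.S at 7 dpa. The list included rgs2.L, a brake on G protein signalling, which was higher at 3 hpa (log2 fold change 2.52 ± 0.51, adjusted p = 0.00136), and was.L, an actin regulator of blood cells, which was higher at 3 dpa (3.06 ± 0.78, 0.00582). Plcb2.L, a phospholipase of leukocytes, was higher at 1 dpa (3.05 ± 0.95, 0.0473). This call was lost in 10 of 13 alternatives, among them leaving out any 1 library of either time (0.0625 to 0.204). It was also lost with RLE scaling (0.0572), without a filter (0.0574), with the library letter as a block (0.0561) and in the fit of those 2 times alone (0.144).

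Of 44 genes of NF-kB, IL-1 and TNF signalling 10 changed over the 9 times, against 15.8% of all genes tested. At 30 mpa 2 were higher, cebpd.L and cebpd.S (0.377% of all genes passed in either direction). At 60 mpa 3 were, these and cebpb.L (1.15%), and at 90 mpa 4, with traf2.L besides (3.38%). At 3 and 6 hpa 7 were higher at each time (3.43% and 3.66% of all genes passed). On the later days 6 were higher at 1 dpa (4.56%), 7 at 3 dpa (9.22%) and 4 at 7 dpa (7.94%), with 0 lower at any time. The median log2 fold change of the list was 1.45 at 3 hpa and 1.42 at 6 hpa, beside -0.02 for all genes tested at both. Cebpd.S, a transcription factor of the acute phase, was higher at 90 mpa by 4.22 ± 0.44 (adjusted p = 6.06e-11). Il11.S, a cytokine of wounded tissue, had no read at 0 mpa and in pooled reads was at least 23.5-fold higher at 1 dpa (0.00526). At 3 hpa, where the level of cxcl8.S was highest, the higher genes were cebpb.L, both copies of cebpd, il11.S, irf1.S, nfkb2.L and rel.L. A link between these genes and the level of cxcl8.S was not tested. Of 18 genes of the hypoxia list 6 changed over the 9 times, against the same 15.8%. The glucose transporter slc2a1 was higher at 3 hpa in both copies (slc2a1.L 3.69 ± 0.39, adjusted p = 8.28e-11, and slc2a1.S 2.57 ± 0.35, 2.04e-07). These 2 were the only genes of the list higher at 3 hpa, where its median log2 fold change was 0.40, beside -0.02 for all genes tested. Epas1.S, a hypoxia-inducible factor subunit, was lower at 7 dpa (-2.29 ± 0.39, 1.88e-05).

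Of 31 tested markers of neutrophils and granulocytes, the cells that CXCL8 draws in mammals, 11 changed over the 9 times, against 15.8% of all genes tested, and 0 were higher at 30, 60 or 90 mpa. At 3 hpa 1 was higher (3.43% of all genes passed in either direction) and at 6 hpa 7 (3.66%). On the later days 6 were higher at 1 dpa (4.56%), 5 at 3 dpa (9.22%) and 2 at 7 dpa (7.94%). The 1 lower marker at 7 dpa was mpo.L, which was higher at 6 hpa and 1 dpa. The summed level of all 35 markers in the table was 613 to 670 CPM at 90 mpa, 758 to 953 CPM at 3 hpa, 1145 to 1574 CPM at 6 hpa, 977 to 1531 CPM at 1 dpa, 931 to 1218 CPM at 3 dpa and 225 to 706 CPM at 7 dpa, against 395 to 501 CPM at 0 mpa. The groups of libraries at 90 mpa, 3 hpa, 6 hpa, 1 dpa and 3 dpa did not overlap the baseline, and the lowest value at 7 dpa was that of the shallow library C. Of the 35 genes 3 had no read at 0 mpa and 3 none at 6 hpa. Lsp1.L, an actin-binding protein of leukocytes, was higher at 1 dpa by 2.89 ± 0.36 (adjusted p = 3.79e-08). The neutrophil growth factor receptor csf3r.L was higher at 3 dpa by 2.94 ± 0.62 (0.000614). Cebpa.L, a transcription factor of myeloid precursors that epidermis also expresses, was higher at 6 hpa by 2.52 ± 0.53 (0.00112; 1.74 and 0.0572 without 6 hpa C). The part of these cells in the levels of cxcl8, cxcr1 and cxcr4 was not tested.

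Of 15 tested macrophage markers 4 changed over the 9 times, against 15.8% of all genes tested. C1qc.L, a complement subunit, was higher at 7 dpa by 5.01 ± 1.16 (adjusted p = 0.00191) while apoe.S was lower (-1.70 ± 0.38, 0.00101). At 7 dpa 2 of the 15 were higher and 1 lower (7.94% of all genes passed in either direction), and the median log2 fold change of the 15 was 1.33. The summed level of the list was 676 to 1246 CPM at 7 dpa, against 2403 to 2874 CPM at 0 mpa, and apoe.S alone averaged 680 CPM at 7 dpa and 2285 CPM at 0 mpa. Of 26 endothelial markers 2 changed, the L and S copies of sox7, against 15.8% of all genes tested. Sox7.L, an endothelial transcription factor, was the 1 marker higher at 3 hpa, by 2.52 ± 0.50 (adjusted p = 0.000415), where the median of the list was -0.18. Sox7.S (joint adjusted p = 0.000882) had a log2 fold change of -1.25 ± 0.45 at 7 dpa, which did not pass (adjusted p = 0.0771). That change passed by DESeq2 (-1.25, 0.0458) and without the 3 libraries under 1500000 counts (-1.18, 0.0379). The summed endothelial level was 181 to 251 CPM at 1 dpa and 139 to 337 CPM at 7 dpa (median 278 CPM, lowest in the shallow library C), against 305 to 337 CPM at 0 mpa.

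Epidermis markers, which bear on the epithelial ligand cxcl14, rose in number to 15 of 27 higher at 6 hpa (3.66% of all genes passed in either direction). They stood at 4 higher and 1 lower at 7 dpa (7.94%). Their summed level was 6620 to 7637 CPM at 6 hpa and 1092 to 3386 CPM at 7 dpa, against 2763 to 3231 CPM at 0 mpa. The 1092 CPM was that of the shallow library 7 dpa C, and the median was 3070 CPM at 7 dpa and 3087 CPM at 0 mpa. The secretory cell lectin itln1.L was lower at 7 dpa, as cxcl14.L was, by -4.58 ± 0.45 (adjusted p = 1.08e-11). Over the 9 times 18 of 27 epidermis, 24 of 28 muscle, 17 of 20 erythroid, 13 of 20 notochord and cartilage and 11 of 27 neural markers changed. Of all genes tested 15.8% did. Muscle markers were lower in 16 of 28 at 1 dpa (4.56% of all genes passed), 22 at 3 dpa (9.22%) and 23 at 7 dpa (7.94%), and erythroid markers in 12 of 20 at 3 dpa and 14 at 7 dpa. Their part in the changes of the 11 genes was not tested.

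**Figure D4:**
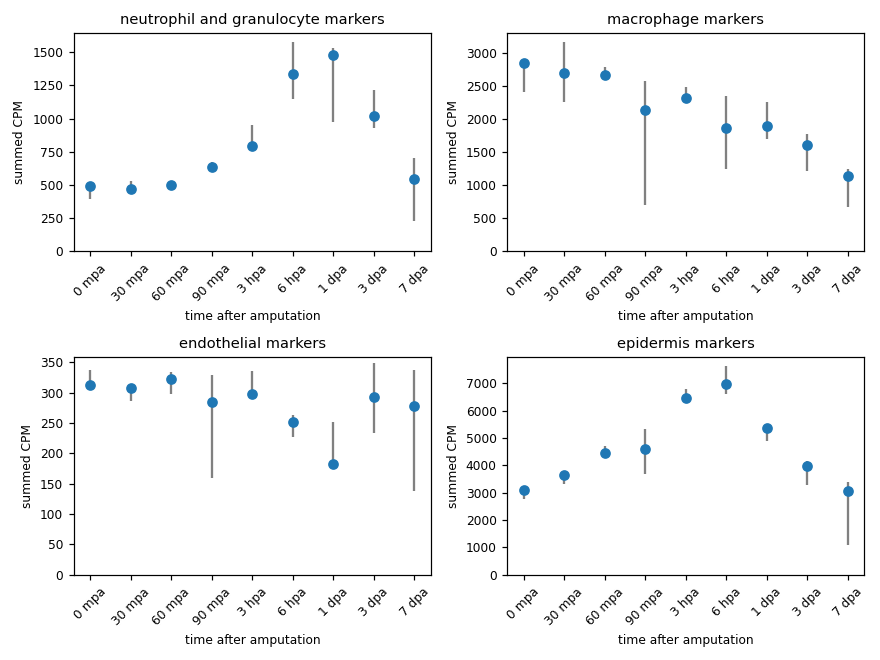
Summed level of 4 marker lists (CPM, y axis from 0) at the 9 times (x axis), with a point for the median of the 3 libraries of a time and a bar for their range. The neutrophil and granulocyte sum is 395 to 501 CPM at 0 mpa and 1145 to 1574 CPM at 6 hpa, and the endothelial sum reaches 349 CPM at most.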

How the data were processed

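RNA of amputated tails was measured in 27 libraries, 3 at each of 9 times. All values rest on the deposited counts, whole numbers of reads per gene made by the authors. Their normalized table was not used. Tools named in the submitters' processing notes, without a stated role, are HTSeq 0.6.1p1, STAR 2.7.9a, R 4.1.0 and DESeq2 1.32.0. Genome build, annotation and strand setting were not given in the sources used here, and reads from genes that overlap or lie antisense to each other could not be separated. Symbols are as deposited, and 29771 of 29776, the 11 described genes included, matched NCBI's RefSeq table of assembly v10.1, used for names and neighbours alone. The 11 genes and all gene lists were chosen with earlier results of these data known.

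Counts were scaled by TMM and tested by quasi-likelihood with robust estimation (edgeR 4.0.16, R 4.3.3), in 1 fit of all 27 libraries with the times as groups. The filter filterByExpr kept 22268 genes, and p-values were adjusted over them (Benjamini-Hochberg, threshold 0.05). A joint test covered all times, and contrasts set each time against 0 mpa and against the time before. CPM is the count divided by the library's total of tested genes times its TMM factor, times 1000000. Errors are SE or, where so named, ranges. Each SE is the absolute fitted log2 fold change (prior count 0.125) divided by the square root of its F statistic. Folds against 0 reads are bounds set at 3 counts over the group, and floors per library stand for 3 counts. Both cover counting error only, and the bounds, from reads pooled over the libraries of a time, leave out the spread between libraries. Copy ratios used a pseudocount of 0.5. Genes were named by a rule: all 11 described genes, up to 3 genes of a list with the largest changes among those passing the joint test with a fitted mean of at least 5 CPM, and the 5 genes most like each changed gene, of which those of the erythroid, muscle, neural and notochord lists are given as counts. Genes named beside list counts at single times were picked with their values known. Alternatives were DESeq2 1.42.0, RLE scaling, no filter, no robust estimation, the library letter as a block, the libraries of 2 times alone, no libraries under 1500000 counts, and leaving out each library.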

Additional observations from a re-analysis of the deposited data

How the results depend on the processing

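Of 165 comparisons of the 11 genes recomputed in 2073 alternative values, 1999 kept their side of the threshold, 56 lost a call, 18 gained one and 0 reversed, where single libraries left out were those of the 2 times compared. Leaving out a library of another time lost ackr3.L at 6 hpa for 11 of 21 libraries (adjusted p of 0.0501 to 0.0549) and ackr3.S at 3 dpa for 7 of 21 (0.0506 to 0.0544), and gained 10 calls without 1 dpa B, 90 mpa C or 3 dpa B. The joint count of 7 was 5 to 8 when single libraries were left out and 7 or 8 in the other alternatives. The 20 calls against 0 mpa were 22 with DESeq2, 20 with RLE scaling, 21 without a filter, 19 without robust estimation and 17 in fits of 2 times alone, in which cxcl8.S gave no value at 90 mpa, 6 hpa, 1 dpa and 3 dpa, and 11 (without 0 mpa A) to 24 (without 1 dpa B) when single libraries were left out. The 1 call between neighbouring times became 2 without the libraries under 1500000 counts, 0 in fits of 2 times alone and 0 to 1 when single libraries were left out. Fits of 2 times alone, which hold 6 libraries each, lost cxcr4.S at 90 mpa (adjusted p = 0.348), ackr3.L at 1 dpa (0.112) and ackr3.S at 1 and 3 dpa (0.0872 and 0.102), and gained cxcl8.L at 60 mpa (0.034) and 3 hpa (0.0247), both ackr3 copies at 3 hpa (0.0017 for L and 0.00779 for S), ackr3.S at 7 dpa (0.0408) and cxcr4.L at 3 dpa (0.0419). Without robust estimation ackr3.L at 6 hpa had 0.0503, and without the libraries under 1500000 counts 0.114. The permutation p of the copy ratio ranged over single libraries left out between 9e-05 (without 3 dpa B) and 0.29 for ackr3, 9e-05 and 0.00081 for cxcl12, and 7e-05 and 0.00178 for cxcr4, and was 0.0399 for ackr3 without 90 mpa B. For cxcl8 the permutation p ranged between 0.0553 (without 1 dpa B) and 0.317, and for cxcr1 between 0.0698 (without 60 mpa C) and 0.776. The causes were not tested.

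The labels do not say whether the letters A to C pair the libraries. Deviations of same-lettered libraries had a median correlation of 0.00414 (range -0.149 to 0.198) and passed 0.1 in 8 of 108 pairs. The shallow libraries take part in these pairs, so these values cannot exclude pairing. With the letter as a replicate block 7 genes passed the joint test, 18 comparisons passed against 0 mpa and 1 between neighbouring times, and ackr3.S missed the threshold at 1 dpa (0.0526) and 3 dpa (0.0539). Under the same block the permutation test of the copy ratio had p = 0.0795 for ackr3, 0.00031 for cxcl12, 0.413 for cxcl8, 0.574 for cxcr1 and 0.00161 for cxcr4. Few reads lie behind the cxcr1 copies, 176 (L) and 446 (S) over all 27 libraries, and behind the times 90 mpa and 7 dpa, whose libraries C held 9 and 5 reads of the 11 genes.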

Other observations

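Of the other chemokines and their receptors 9 genes were too low to test, and their reads are given as counts over the 3 libraries of a time. The CC chemokine receptor gene ccr2.L had 59 reads in all, 32 of them at 7 dpa and 0 at 0 mpa. The chemerin receptor gene cmklr1.S had 35 reads, 11 at 1 dpa, 4 at 3 dpa and 20 at 7 dpa, and 0 at every earlier time. The 2 copies of ccl5, a T cell chemokine in mammals, had 17 (L) and 19 (S) reads at 7 dpa, against 0 and 7 at 0 mpa. The other untested genes did not share this late course. Cxcl13.L had 13 reads at 60 mpa, 16 at 6 hpa and 0 at 7 dpa. Cxcl10.L had 13 reads at 0 mpa, 19 at 3 dpa and 0 at 7 dpa. Ccr3.L had 6 reads at 0 mpa and 7 at 7 dpa, ccr7.L had 8 at 3 dpa alone, and cxcr3.L had 7 in all. These counts are few and are not scaled for depth. In RefSeq's table of assembly v10.1 both cxcl8 copies lie beside a copy of cxcl2, another CXC chemokine gene, and these neighbours had 35 (cxcl2.L) and 14 (cxcl2.S) reads in all 27 libraries, at most 10 and 6 in a library.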
